A study of Arabidopsis thaliana with 6 samples.

Results

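Gibberellin synthesis, perception and signalling were followed through 8 nuclear genes of *Arabidopsis thaliana* seedlings, chosen by name among the 36917 genes in the count files. They code for 3 enzymes of hormone synthesis (*GA20OX1*, AT4G25420, *GA20OX2*, AT5G51810, and *GA3OX1*, AT1G15550), 2 receptors (*GID1A*, AT3G05120, and *GID1B*, AT3G63010) and 3 DELLA repressors (*RGA*, AT2G01570, *GAI*, AT1G14920, and *RGL1*, AT1G66350). The 6 RNA-Seq libraries comprised 3 of the knock-down line *amiR1-3-mterf2*, which expresses an artificial microRNA against *MTERF2* in the Col-0 background, and 3 of the wild-type accession Col-0. *MTERF2* codes for a chloroplast protein of the mitochondrial transcription termination factor family. All seedlings were 6 days old and had been raised in long days on agar medium with sucrose, without hormone treatment named in the labels. The knock-down was represented by a single line, and the promoter that drives its microRNA is not given in the sources used here. Whole seedlings were sampled, so that fewer cells of a type and less RNA per cell cannot be told apart.

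Gibberellins are diterpenoid hormones that promote germination, hypocotyl and root elongation, leaf growth and flowering. They are built from geranylgeranyl diphosphate, and the last steps are carried out by GA 20-oxidases and GA 3-oxidases, whereas GA 2-oxidases inactivate them. The hormone is bound by GID1 receptors, which then capture DELLA proteins and hand them to the ubiquitin ligase SCF-SLY1 for degradation, so that genes held back by DELLA proteins become active. In Arabidopsis, the pathway is known to adjust itself by feedback: when little gibberellin is sensed, transcripts for 20-oxidases, 3-oxidases and receptors accumulate.

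The DELLA proteins share an amino-terminal motif, after whose residues they are named, that the hormone-bound receptor contacts. The coding bases at this motif are shown to set the 5 DELLA genes side by side. *RGL1* and *RGL2* were lower in the knock-down seedlings, whereas *RGA*, *GAI* and *RGL3* did not pass the test. The motif belongs to the protein, and a relation of these bases to transcript level was not tested. The 51 bases are written 5′ to 3′ in the sense of the transcript, from RefSeq on TAIR10.1, and the capitals mark the 15 bases aligned with the 5 residues of the name. These bases code for DELLA in *RGA*, *GAI* and *RGL2*, for DELLV in *RGL1* and for DEFLA in *RGL3*.
RGA: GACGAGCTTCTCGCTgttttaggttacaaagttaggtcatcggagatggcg
GAI: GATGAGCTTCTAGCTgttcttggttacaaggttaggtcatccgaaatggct
RGL1: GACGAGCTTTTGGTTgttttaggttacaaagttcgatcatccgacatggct
RGL2: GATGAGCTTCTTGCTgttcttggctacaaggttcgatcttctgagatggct
RGL3: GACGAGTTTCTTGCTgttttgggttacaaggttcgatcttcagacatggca

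These stretches lie in the only coding exon of each gene, at chr2:257165-257215 on the minus strand for *RGA*, chr1:5149495-5149545 on the plus strand for *GAI*, chr1:24748420-24748470 on the plus strand for *RGL1*, chr3:821100-821150 on the minus strand for *RGL2* and chr5:5765738-5765788 on the minus strand for *RGL3*. Of the 51 bases, 43 were the same as in *RGA* for *GAI*, 43 for *RGL1*, 40 for *RGL2* and 41 for *RGL3*. Over whole coding sequences the closest pairs were *GID1A* and *GID1C* with 84.2% identical aligned bases, *RGA* and *GAI* with 82.6%, and *GA20OX1* and *GA20OX2* with 79.4%. The longest run of bases shared without a mismatch was 35 between *GID1A* and *GID1C*, 30 between *RGA* and *GAI* and 29 between *GA20OX1* and *GA20OX2*. The reads described in the study's methods are longer than the longest of these runs, so a full-length read could not lie wholly inside one. How the authors treated reads with several matches, or reads shortened by trimming, is not given in the sources used here. None of the 8 genes overlaps another annotated gene.

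Between 18004935 and 21832003 counts per library fell on genes. A level of 3 counts, the smallest regarded as detectable, corresponded to 0.140 to 0.175 CPM, where CPM is the count scaled to a fixed library size after TMM normalization, and this floor covers counting error only. The targeted gene *MTERF2* (AT2G21710) had 32, 16 and 8 counts in *amiR1-3-mterf2* replicates 1 to 3, against 48, 33 and 58 counts in Col-0 replicates 1 to 3. On the CPM scale its groups overlapped, because the level was 1.87 CPM in *amiR1-3-mterf2* replicate 1 and 1.80 CPM in Col-0 replicate 2. The fitted difference was -1.15 on the log2 scale, with a standard error (SE) of 0.48 and an adjusted p of 0.0837 (edgeR), which was 0.0150 when *amiR1-3-mterf2* replicate 1 was left out (log2 fold change -1.88) and 0.0265 when Col-0 replicate 2 was. Col-0 replicate 2 stood apart from the other libraries: of its nuclear genes with 1 to 20 counts, 43.3% had an even count, against 72.4% to 75.3% in the other 5 libraries, and it differed from the other Col-0 libraries by a mean chi-square per nuclear gene of 24.3 and 25.2, against 3.03 between those. Whether a count stands for the same number of read pairs in that library as in the other 5 is not given in the sources used here. The floor of 3 counts and other low counts may therefore not mean the same in all libraries. For the 8 genes, both values are given where leaving out Col-0 replicate 2 ended a call or moved the log2 fold change by over 1.5 times. Several marker genes also moved without that library, and both values are given for only some of them.

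Some marker genes of seedling parts also differed between the genotypes, and their counts stand against 18.2% of all tested genes called lower and 18.1% called higher. Of 7 root markers, 6 could be tested and 3 were lower (*PYK10*, *CASP1* and *COBL9*), whereas *PIN2*, *SHR* and *SCR* did not pass. The direction of *PIN2* changed with Col-0 replicate 2. Its log2 fold change was -0.23 with that library and 1.56 without it (adjusted p = 0.848 and 0.0750, edgeR). The root markers summed to 409 to 428 CPM in *amiR1-3-mterf2* and 1004 to 1417 CPM in Col-0, or 1004 to 1041 CPM without Col-0 replicate 2, and *PYK10* alone made up 389 to 408 CPM in *amiR1-3-mterf2* and 974 to 1358 CPM in Col-0. Of the root markers, *EXPA7* was at 0 in every library except Col-0 replicate 2, which had 69 counts, and *COBL9* had 176 counts in that library, against 10 and 12 in the other Col-0 libraries. The log2 fold change of *COBL9* was -6.39 with that library and -3.64 without it (adjusted p = 0.00782 and 0.0104, edgeR). Of 5 seed markers, 4 could be tested and 3 were higher (*CRC*, *SESA2* and *OLEO1*), whereas *CRA1* did not pass (log2 fold change -0.08, adjusted p = 0.817, edgeR). They summed to 16.2 to 19.8 CPM in *amiR1-3-mterf2* and 6.87 to 8.47 CPM in Col-0. *CRA1* alone made up 5.07 to 7.20 CPM in Col-0, and *CRC* made up 8.79 to 9.30 CPM in *amiR1-3-mterf2*, against 0.608 to 1.17 CPM in Col-0. The 6 green-tissue markers summed to 18597 to 18812 CPM in *amiR1-3-mterf2* and 13095 to 20481 CPM in Col-0, and 1 of them, *LHCB1.3*, was higher. Without Col-0 replicate 2 the green-tissue sum in Col-0 was 13095 to 13308 CPM, *LHCB1.2* and *RBCS1A* were called higher as well, and *RCA* was called lower. Their log2 fold changes were 0.93, 0.76 and -0.17 without that library, against 0.50, 0.07 and -0.29 with it. The 4 flower markers summed to 5.50 to 6.49 CPM in *amiR1-3-mterf2* and 0.436 to 1.13 CPM in Col-0, most of it from *PI*. Only *PI* could be tested, and it was higher (log2 fold change 3.31, adjusted p = 1.68e-05, edgeR). *AP1*, *AG* and *AP3* had too few counts for the test. The 4 shoot meristem markers summed to 14.5 to 16.9 CPM in *amiR1-3-mterf2* and 19.7 to 24.7 CPM in Col-0. *KNAT1* alone made up 12.2 to 14.2 CPM in *amiR1-3-mterf2* and 17.6 to 21.9 CPM in Col-0. Of these markers 2 could be tested. *KNAT1* was lower, whereas *STM* did not pass (log2 fold change -0.11, adjusted p = 0.790, edgeR), and *WUS* and *CLV3* were at 0 in all 6 libraries. The part of these differences in the results below was not tested.

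Of the 8 gibberellin genes, 7 passed the filter on low counts, 2 were lower in *amiR1-3-mterf2* (*RGL1* and *GA20OX1*) and none was higher at an adjusted p under 0.05 in the quasi-likelihood test of edgeR, Benjamini-Hochberg adjusted over 17902 genes. At an unadjusted p under 0.05 by edgeR the count was likewise 2 lower and 0 higher, and DESeq2 called 2 lower and 0 higher. Of all 17902 genes, 4081 were lower and 3982 higher at that unadjusted p, and DESeq2 called 3207 lower and 3065 higher. Leaving out Col-0 replicate 2 gave 3 calls, with *GID1B* added as higher, and leaving out any other library gave 1, *RGL1*. Over all genes tested, 36.4% were called, 18.2% lower and 18.1% higher, so that 2 of 7 is not a share that sets these genes apart. The median log2 fold change of the 7 genes was -0.32, against -0.02 over all genes tested. Without Col-0 replicate 2 these medians were -0.08 and -0.0007. Every *amiR1-3-mterf2* library lay below every Col-0 library for 3 of the 7 genes (*GA20OX1*, *RGA* and *RGL1*), which held for 24.4% of all genes tested, and above it for none of them, against 25.0% of all genes.

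**Figure D1:**
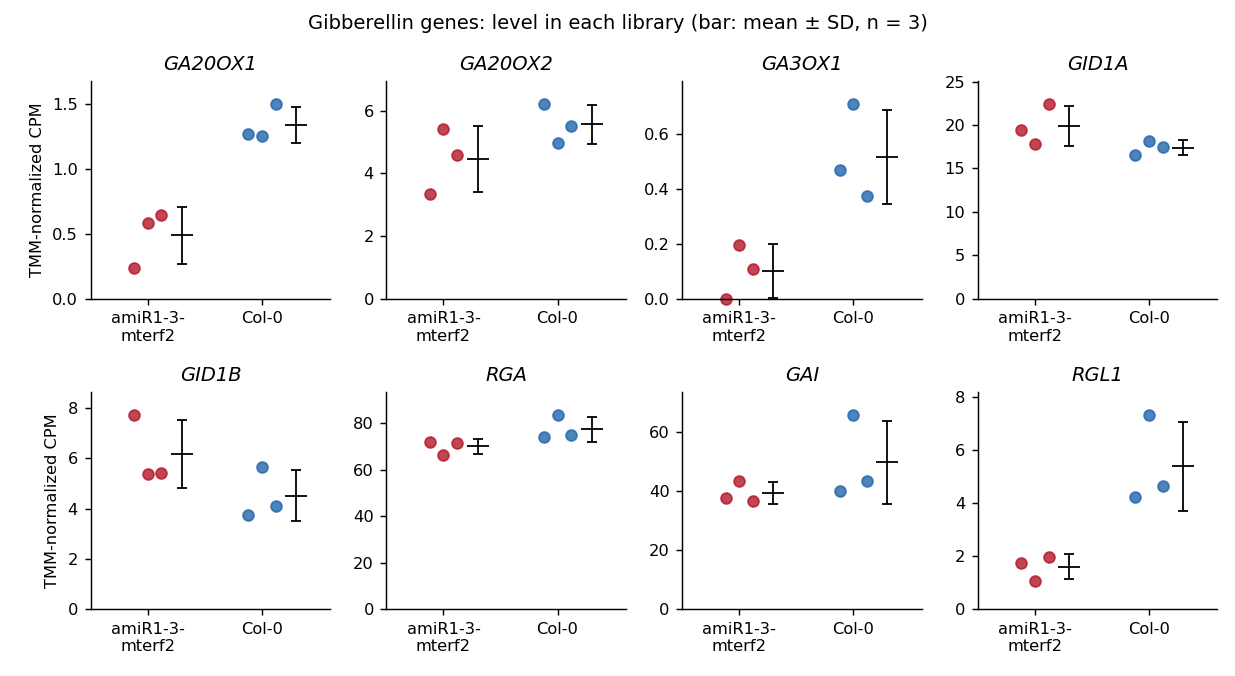
TMM-normalized CPM of the 8 gibberellin genes in each library, with *amiR1-3-mterf2* (red) left of Col-0 (blue) and the bar giving the mean and SD of 3 libraries. *GA20OX1*, *GA3OX1* and *RGL1* are well separated between the genotypes, *RGA* is separated by a narrow gap, and the groups overlap for *GA20OX2*, *GID1A*, *GID1B* and *GAI*.

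GA 20-oxidases make the direct precursors of active gibberellins and are regarded as a point at which the supply of the hormone is set. *GA20OX1* had 4, 12 and 12 counts in *amiR1-3-mterf2*, against 27, 23 and 32 counts in Col-0. These counts correspond to 0.234, 0.586 and 0.641 CPM in *amiR1-3-mterf2*, against 1.27, 1.25 and 1.50 CPM in Col-0. The highest knock-down library was therefore below the lowest Col-0 library. The level was 0.37 times that of Col-0, with a range of 0.267 to 0.513 at 1 standard error (log2 fold change -1.44, SE 0.47, adjusted p = 0.0345, edgeR). This call was close to the threshold and rested on few counts. It was lost without the filter on low counts (adjusted p = 0.0618, edgeR) and when any library other than Col-0 replicate 2 was left out, with adjusted p from 0.0550 to 0.109 (edgeR). Without Col-0 replicate 2 the call held.

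*GA20OX2*, the 20-oxidase with most counts here, had 57, 111 and 86 counts in *amiR1-3-mterf2*, against 132, 91 and 118 counts in Col-0. Its level was 4.45 ± 1.05 CPM in *amiR1-3-mterf2* and 5.56 ± 0.619 CPM in Col-0 (SD, n = 3 each), and the groups overlapped. The difference was -0.32 on the log2 scale (SE 0.22, adjusted p = 0.295, edgeR), -0.14 without *amiR1-3-mterf2* replicate 1 and -0.48 without *amiR1-3-mterf2* replicate 2. No other 20-oxidase gene was detected in the knock-down line: *GA20OX3*, *GA20OX4* and *GA20OX5* were at 0 counts in all *amiR1-3-mterf2* libraries. In Col-0 they reached at most 3, 2 and 4 counts, mostly in replicate 2.

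GA 3-oxidases carry out the final step to the active hormone. *GA3OX1* had 0, 4 and 2 counts in *amiR1-3-mterf2*, against 10, 13 and 8 counts in Col-0, and was left out of the fit by the filter on low counts. Every knock-down library was below every Col-0 library, and 2 of the 3 were below the floor of 3 counts. The mean level was 0.101 ± 0.0978 CPM in *amiR1-3-mterf2* and 0.518 ± 0.172 CPM in Col-0 (SD, n = 3 each), a difference of -0.42 CPM (two-sided exact permutation test, p = 0.1, the minimum for 3 against 3 libraries). In a fit without the filter the difference was -2.22 on the log2 scale (SE 1.04, adjusted p = 0.130, edgeR), so that the gene did not pass the test there. Its paralogs were at the limit of detection, with 0 counts for *GA3OX3* in every library, a single count for *GA3OX2* in Col-0 replicate 2 and a single count for *GA3OX4* in *amiR1-3-mterf2* replicate 1.

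The GID1 receptors are soluble proteins that bind gibberellin and, once occupied, the DELLA proteins. *GID1A* had 333, 365 and 419 counts in *amiR1-3-mterf2*, against 353, 334 and 373 counts in Col-0. Its level was 19.9 ± 2.31 CPM in *amiR1-3-mterf2* and 17.4 ± 0.819 CPM in Col-0 (SD, n = 3 each), with overlapping groups (log2 fold change 0.19, SE 0.13, adjusted p = 0.262, edgeR). The log2 fold change of *GID1A* was 0.10 without *amiR1-3-mterf2* replicate 3 and 0.04 with total counts in place of TMM. *GID1B* had 132, 110 and 101 counts in *amiR1-3-mterf2*, against 80, 104 and 88 counts in Col-0. On the CPM scale Col-0 replicate 2, with 5.67 CPM, lay above *amiR1-3-mterf2* replicates 2 and 3, with 5.37 and 5.40 CPM. On the log2 scale the difference of *GID1B* was 0.45 (SE 0.23, adjusted p = 0.157, edgeR), and without Col-0 replicate 2 it was 0.64 with an adjusted p of 0.0263 (edgeR). Without *amiR1-3-mterf2* replicate 1 it was 0.27.

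The receptor gene that passed the test was the third one, *GID1C* (AT5G27320). It had 177, 238 and 211 counts in *amiR1-3-mterf2*, against 293, 270 and 331 counts in Col-0, and on the CPM scale every knock-down library was below every Col-0 library. The difference was -0.40 on the log2 scale (SE 0.12, adjusted p = 0.0267, edgeR). The call was lost with the DESeq2 Wald test (adjusted p = 0.0500, just above the threshold), without the filter on low counts (adjusted p = 0.0532, edgeR) and when Col-0 replicate 3 or any of the *amiR1-3-mterf2* libraries was left out, with adjusted p from 0.0587 to 0.103 (edgeR).

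DELLA proteins are nuclear repressors of growth, and *RGA* and *GAI* are the main ones for stem and leaf elongation, whereas *RGL2* is best known for holding back germination. *RGL1* was the gibberellin gene among the 8 with the clearest difference. It had 30, 22 and 37 counts in *amiR1-3-mterf2*, against 90, 134 and 99 counts in Col-0, and in CPM 1.75, 1.07 and 1.98 in *amiR1-3-mterf2*, against 4.23, 7.31 and 4.63 in Col-0. The groups did not overlap, and Col-0 replicate 2 was the highest of all. The level was 0.297 times that of Col-0, with a range of 0.240 to 0.369 at 1 standard error (log2 fold change -1.75, SE 0.31, adjusted p = 0.00126, edgeR). It passed the test in each of the 15 fits made, with log2 fold changes between -1.93 and -1.47 and adjusted p between 3.63e-06 and 0.00901 (edgeR and DESeq2). The value of -1.47 was the one without Col-0 replicate 2.

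*RGA*, the DELLA gene with most counts, had 1231, 1361 and 1341 counts in *amiR1-3-mterf2*, against 1577, 1532 and 1598 counts in Col-0. Its level was 70.0 ± 3.09 CPM in *amiR1-3-mterf2* and 77.4 ± 5.28 CPM in Col-0 (SD, n = 3 each). The groups came close, with 72.0 CPM in the highest knock-down library and 74.0 CPM in the lowest Col-0 library, and did not overlap. The test was not passed (log2 fold change -0.15, SE 0.10, adjusted p = 0.307, edgeR), and without Col-0 replicate 2 the log2 fold change was -0.08. *GAI* had 644, 889 and 687 counts in *amiR1-3-mterf2*, against 850, 1204 and 929 counts in Col-0. In CPM it had 37.6, 43.4 and 36.7 in *amiR1-3-mterf2*, against 39.9, 65.6 and 43.5 in Col-0, so that Col-0 replicate 2 stood far above the other 5 libraries and the rest overlapped. On the log2 scale the difference was -0.34 (SE 0.18, adjusted p = 0.160, edgeR), and without that library it was -0.08.

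The DELLA genes outside the 8 were *RGL2* (AT3G03450) and *RGL3* (AT5G17490). *RGL2* had 4, 6 and 10 counts in *amiR1-3-mterf2*, against 26, 45 and 42 counts in Col-0, with no overlap on the CPM scale (log2 fold change -2.38, SE 0.49, adjusted p = 0.00301, edgeR). It passed in each of the 14 fits in which it could be tested. *RGL3* had 44, 38 and 66 counts in *amiR1-3-mterf2*, against 74, 66 and 98 counts in Col-0, and did not pass (log2 fold change -0.55, SE 0.28, adjusted p = 0.149, edgeR, and -0.34 without *amiR1-3-mterf2* replicate 2).

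Shares within a gene family need no scaling between libraries. The 5 DELLA genes together had 1953, 2316 and 2141 counts in *amiR1-3-mterf2*, against 2617, 2981 and 2766 counts in Col-0. *RGA* took 61.5% ± 2.36 of them in *amiR1-3-mterf2* and 56.5% ± 4.57 in Col-0 (SD, n = 3 each, two-sided exact permutation test, p = 0.2), a difference of 5.002 percentage points that was 2.46 without Col-0 replicate 2. *GAI* took 34.5% ± 3.41 in *amiR1-3-mterf2* and 35.5% ± 4.28 in Col-0 (SD, n = 3 each, two-sided exact permutation test, p = 0.6). The share of *RGL1* was 1.40% ± 0.405 in *amiR1-3-mterf2* and 3.84% ± 0.574 in Col-0 (SD, n = 3 each, two-sided exact permutation test, p = 0.1, the smallest possible). *RGA* and *GAI* together took most DELLA counts in every library.

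In the receptor family, *GID1A* took 53.5% ± 3.36 of the counts in *amiR1-3-mterf2* and 47.6% ± 0.859 in Col-0 (SD, n = 3 each, two-sided exact permutation test, p = 0.1, the smallest possible). *GID1C* took 29.9% ± 3.05 in *amiR1-3-mterf2* and 40.1% ± 1.84 in Col-0 (SD, n = 3 each, two-sided exact permutation test, p = 0.1). The direction for *GID1A* depended on *GID1C*: with *GID1A* and *GID1B* alone in the sum, the share of *GID1A* was lower in the knock-down line, by a difference of -3.22 percentage points (two-sided exact permutation test, p = 0.4). Among the 20-oxidases, *GA20OX1* took 9.52% ± 2.85 in *amiR1-3-mterf2* and 18.9% ± 2.04 in Col-0 (SD, n = 3 each, two-sided exact permutation test, p = 0.1, the smallest possible), and the sums behind these shares were small, with 61, 123 and 98 counts in *amiR1-3-mterf2*, against 159, 123 and 152 counts in Col-0. Adjusted over the 13 shares computed, a permutation p of 0.1 became 0.217, and with 3 libraries against 3 no share could have passed a threshold of 0.05.

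**Figure D2:**
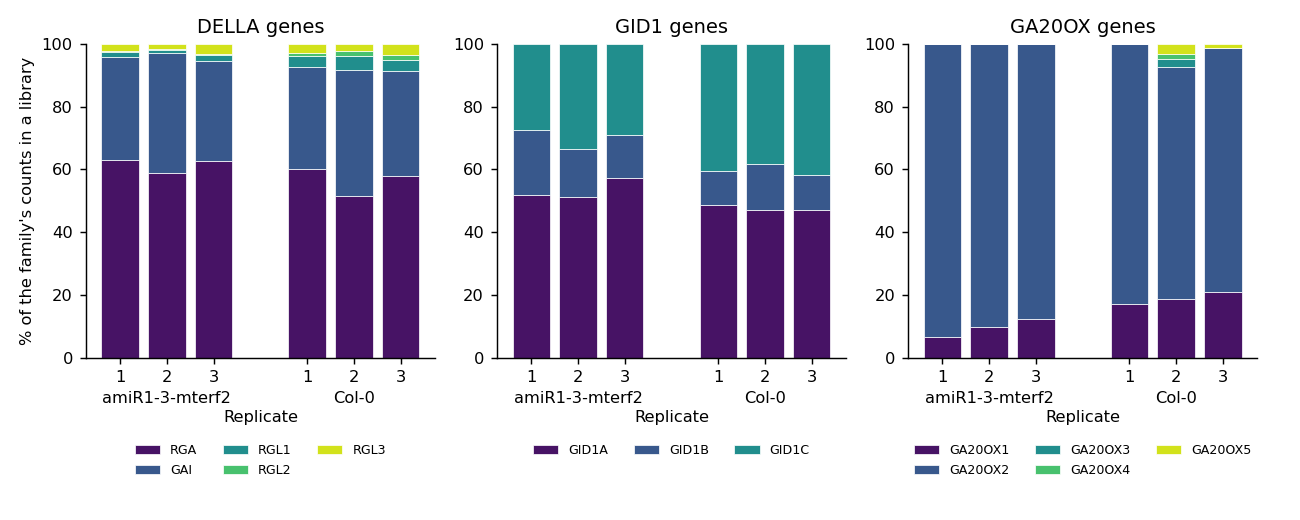
Share of the counts of the DELLA, GID1 and GA20OX genes taken by each gene (stacked bars, percent), by replicate, with the 3 *amiR1-3-mterf2* libraries left of the 3 Col-0 libraries in each panel. *RGA* and *GAI* fill most of every DELLA bar, the *GID1C* part is smaller in *amiR1-3-mterf2* (29.9% against 40.1%), and the *GA20OX1* part is about 9.52% in *amiR1-3-mterf2*, against 18.9% in Col-0.

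Levels of different genes were compared as CPM per kilobase of exon, given as means of 3 libraries. In *amiR1-3-mterf2* the order ran from *RGA* (30.2) over *GAI* (16.1), *GID1A* (10.4), *GID1B* (3.02), *GA20OX2* (2.85), *RGL1* (0.769) and *GA20OX1* (0.315) to *GA3OX1* (0.0662). In Col-0 it ran from *RGA* (33.4) over *GAI* (20.4), *GID1A* (9.10), *GA20OX2* (3.56), *RGL1* (2.59), *GID1B* (2.21) and *GA20OX1* (0.868) to *GA3OX1* (0.340). The top of the order was the same in both genotypes, and *RGL1* stood next to *GA20OX2* and *GID1B* in Col-0 but below both in *amiR1-3-mterf2*. Neighbours whose libraries overlapped were *GID1B* and *GA20OX2* in *amiR1-3-mterf2*, and *GA20OX2* and *RGL1*, and *RGL1* and *GID1B*, in Col-0. All other neighbours were separated in every library.

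In the 250 bases upstream of the annotated start of each of the 8 genes, a G-box (CACGTG, read on both strands) was found in none, against 6.49% of the 27431 promoters of the same length, and a GARE-type element (TAACAAA, both strands) was found in *GID1A* alone, against 16.2% of those promoters. The *GID1A* match began at position -202 relative to the start. The motif letters do not overlap each other, and a match is a description of the letters only.

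The rest of the pathway was read from 56 gibberellin genes grouped by role, which include the 8. Of these, 33 could be tested, 8 were lower and 3 were higher in *amiR1-3-mterf2*, with a median log2 fold change of -0.31, against -0.02 over all genes tested. Without the 8 genes, 26 of 48 could be tested, of which 6 were lower and 3 higher. Over all genes tested 18.2% were lower and 18.1% higher, and the pathway was not tested against other genes.

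In the early steps of synthesis, 4 of 5 genes could be tested and 1 was higher. This was *KAO2* (AT2G32440), an ent-kaurenoic acid oxidase that makes the first gibberellin skeleton. It had 283, 355 and 298 counts in *amiR1-3-mterf2*, against 254, 193 and 300 counts in Col-0, with no overlap on the CPM scale (log2 fold change 0.45, SE 0.14, adjusted p = 0.0253, edgeR). Scaling by total counts ended the call (log2 fold change 0.29, adjusted p = 0.203, edgeR), as did leaving out Col-0 replicate 1 or any *amiR1-3-mterf2* library, with adjusted p from 0.0549 to 0.0863 (edgeR). Of 11 inactivation genes, 5 could be tested and none was called by edgeR or DESeq2, with 1 at an unadjusted p under 0.05. Of the 4 genes for DELLA regulators (*SLY1*, *SNE*, *SPY* and *SEC*), all were tested and none was called by edgeR or DESeq2 or had an unadjusted p under 0.05. Both DELLA targets listed, *SCL3* and *XERICO*, were tested and neither was called by edgeR or DESeq2, with 1 at an unadjusted p under 0.05.

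Of 3 transport genes, 1 could be tested and was lower. *NPF3.1* (AT1G68570), a membrane transporter that can carry gibberellin and is expressed in the root endodermis, had 9, 19 and 14 counts in *amiR1-3-mterf2*, against 119, 81 and 91 counts in Col-0. No knock-down library came near a Col-0 library (log2 fold change -2.67, SE 0.30, adjusted p = 5.06e-05, edgeR). The endodermis marker *CASP1* was lower in the same libraries (log2 fold change -1.55). *SCR*, another root marker active in the endodermis, did not pass (log2 fold change -0.30, adjusted p = 0.200, edgeR). Without Col-0 replicate 2 the log2 fold change of *SCR* was -0.10. The part of endodermis cells in the difference of *NPF3.1* was not tested. The other transport genes listed, *SWEET13* and *SWEET14*, could not be tested.

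GASA genes code for small cysteine-rich peptides, several of which respond to gibberellin. Of 14 listed, 7 could be tested, 3 were lower and 2 were higher, and the responses ran in opposite directions within the family. *GASA1* (AT1G75750) had 4776, 5521 and 5201 counts in *amiR1-3-mterf2*, against 2188, 1782 and 2294 counts in Col-0 (log2 fold change 1.43, SE 0.10, adjusted p = 1.36e-06, edgeR). *GASA6* (AT1G74670) had 961, 964 and 1018 counts in *amiR1-3-mterf2*, against 3320, 2218 and 3165 counts in Col-0 (log2 fold change -1.43, SE 0.13, adjusted p = 9.48e-06, edgeR). Both genes therefore moved by nearly the same amount in opposite directions, without overlap between the genotypes in either case. *GASA14* (AT5G14920) was higher by 0.74 on the log2 scale (SE 0.11, adjusted p = 3.32e-04, edgeR). *GASA4* (AT5G15230, log2 fold change -0.70) and AT1G22690 (log2 fold change -0.76) were lower, with adjusted p of 3.78e-04 and 0.00159 (edgeR). These 5 GASA genes and *NPF3.1* passed in every fit in which they could be tested.

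**Figure D3:**
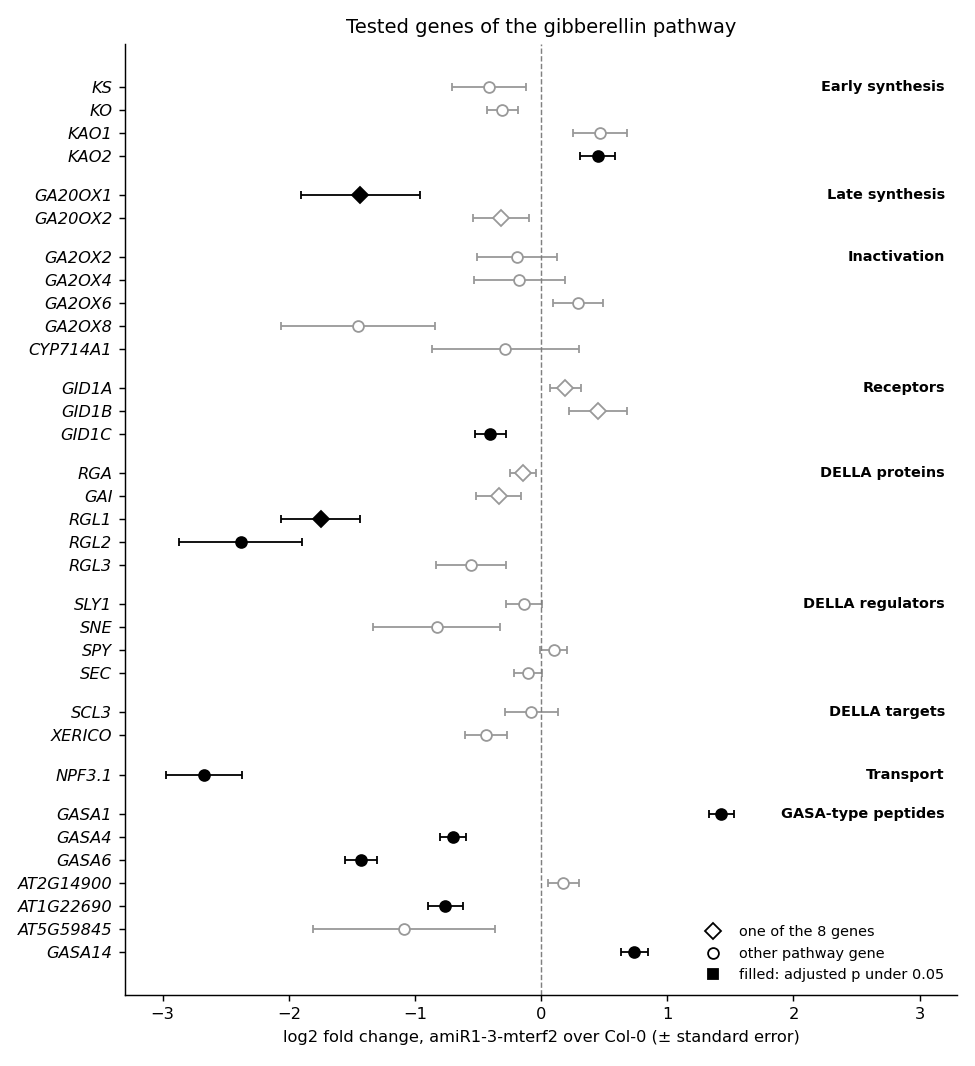
Log2 fold change of *amiR1-3-mterf2* over Col-0 (horizontal axis, bars are standard errors) for the 33 tested genes of the gibberellin pathway, grouped by role, with diamonds for the 8 genes described first, of which 7 could be tested, and filled symbols for an adjusted p under 0.05. The filled symbols to the left are *GA20OX1*, *GID1C*, *RGL1*, *RGL2*, *NPF3.1*, *GASA4*, *GASA6* and AT1G22690, and those to the right are *KAO2*, *GASA1* and *GASA14*.

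The scaling between libraries shifted all genes alike. With total counts in place of TMM, the log2 fold changes of the tested genes had a median of -0.17, and 2129 genes were higher and 4148 lower, against 3248 higher and 3261 lower with TMM. Of the gibberellin genes, 2 were then higher and 11 lower. *GAI* passed the test under this scaling (log2 fold change -0.48, adjusted p = 0.0314, edgeR), which is -0.31 relative to the median of all genes. *RGL1* was then -1.72 and *GA20OX1* -1.42 relative to that median. No gene among the 7 changed its direction under any scaling, filter or test, or when any library was left out.

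**Figure D4:**
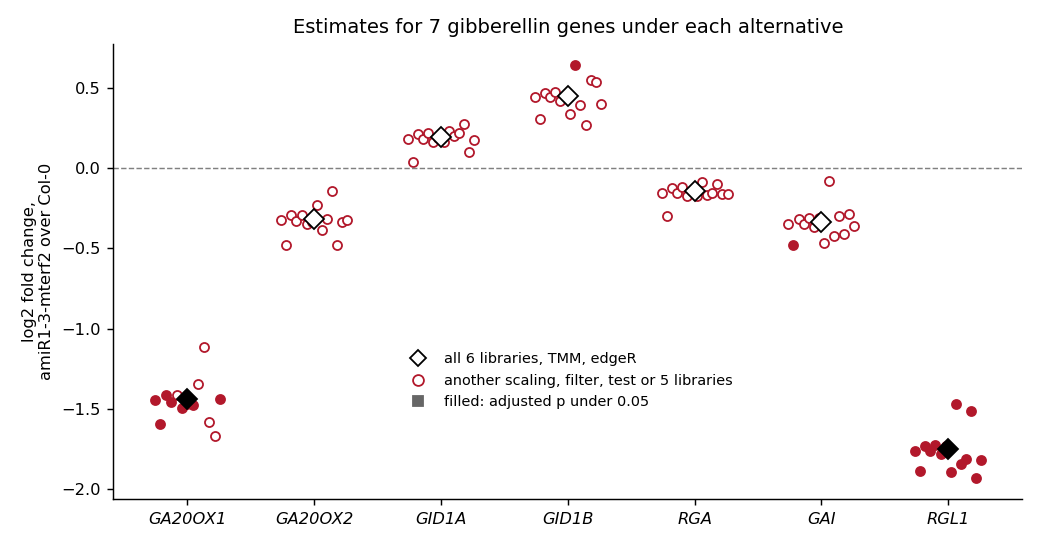
Log2 fold change of *amiR1-3-mterf2* over Col-0 (vertical axis) for the 7 tested gibberellin genes, with the estimate from all 6 libraries (black diamond) and from each other scaling, filter, test or set of 5 libraries (red circles), filled where the adjusted p was under 0.05. All points of *RGL1* are filled, those of *GA20OX1* are partly filled, and *GAI* and *GID1B* have 1 filled point each.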

How the data were processed

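The authors aligned read pairs from rRNA-depleted RNA and deposited raw exon counts per gene, 1 file per library. The file headers name HISAT2, whereas the submitters' processing notes list Trimmomatic, FastQC, TopHat2 2.1.1, featureCounts and TAIR10. Strand, pair and multiple-match settings are not given in the sources used here. TAIR10.1 held 36632 of the 36917 identifiers.

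Genes were kept by filterByExpr (minimum count 10, minimum total 15), scaled by TMM and compared in edgeR 4.0.16 (R 4.3.3) by its quasi-likelihood test, with p-values Benjamini-Hochberg adjusted over 17902 genes and a threshold of 0.05. CPM used TMM-scaled library sizes. Standard errors were derived from the fold change and the F statistic. DESeq2 1.42.0 served as an alternative, and shares were tested by exact permutation. Gene lists, markers and the 8 genes were chosen with earlier results of these data known. Named besides the 8 were *MTERF2*, all paralogs of the 8, and pathway genes past the threshold (at most 5 per list). Marker genes were named afterwards for their values. The study's methods call the 3 libraries per genotype independent biological replicates, which the labels do not detail. On simulated counts with 200 of 18099 genes changed 4-fold, edgeR recovered 100% with 2.91% false calls and DESeq2 99.5% with 7.87%. The simulation gave all genes the same variability, had no deviating library and changed far fewer genes than were called here. Genes with as few counts as *GA20OX1* or *GA3OX1* were not among those changed, so the recovery does not extend to them.

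Alternatives were other scalings (DESeq2 size factors, total counts, nuclear genes), DESeq2, no filter, at least 10 counts in every library, a replicate block, leaving out each library and, added after seeing the data, halving the counts of the 5 libraries with mostly even low counts and giving the markers without Col-0 replicate 2.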

Additional observations from a re-analysis of the deposited data

How the results depend on the processing

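Over all genes, 6509 were called, and 4983 to 7849 with 1 library left out. The 2 calls among the 8 genes became 1 without the filter on low counts and 1 with at least 10 counts in every library, where *GA20OX1* was not tested, and 1 to 3 with 1 library left out. The log2 fold change of *GA20OX1* was -1.41 without the filter, no longer past the threshold, and -1.67 to -1.11 with 1 library left out. *GAI* passed with total counts (-0.48), and *GID1B* ranged from 0.27 to 0.64 with 1 library left out. The *GID1A* share of receptor counts reversed to -3.22 percentage points with members only in the sum, because *GID1C* leaves the sum. Of the 56 pathway genes, which include the 8, 33 could be tested with all 6 libraries and 11 were called, and 8 to 15 with 1 library left out. Over all genes tested, 36.4% were called with all 6 libraries.

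Deviations of same-numbered libraries from their group means correlated by only 0.034, 0.021 and -0.012, so no strong effect shared by number was seen. Whether same-numbered libraries were raised or prepared together cannot be read from these values. The fit with a replicate block called 6272 genes in all, 2 of the 8 and 13 of the pathway. *GA3OX1* and its paralogs are limited by depth, since most libraries held fewer than 10 counts.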
